A study of Mus musculus with 6 samples.

Results

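The 10 genes described here define or drive the epithelial to mesenchymal transition (EMT), and were read in bulk RNA-seq of CD31-selected tumor endothelial cell fractions. They are 10 of the 23473 RefSeq rows of the deposited expression table, matched by gene symbol. Krt8, Krt18 and Cdh1 mark epithelial cells, Cdh2 and Vim mark mesenchymal cells, and Snai1, Snai2, Twist1, Zeb1 and Zeb2 encode transcription factors that drive the transition. The fractions came from Lewis lung carcinoma (LLC) tumors, a mouse lung cancer line grown in C57BL/6 mice aged 8 weeks. The 3 Ctrl libraries came from mice labelled wild type. The 3 NICeCA libraries came from mice carrying Cdh5-CreERT2 and a Notch1 intracellular domain behind a floxed stop at Rosa26. Tamoxifen therefore switches on Notch signaling in cells with an active Cdh5 promoter, which is the promoter of VE-cadherin and marks endothelial cells. The sources used here do not say whether Ctrl mice received tamoxifen. By the labels the tumors were taken on different days, and by the study's methods on day 14 after inoculation.

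In an EMT, epithelial cells give up E-cadherin junctions and keratin filaments and take on N-cadherin and vimentin. Snail, Slug, ZEB1 and ZEB2 repress the E-cadherin gene by binding E-boxes in its promoter. Endothelial cells contain vimentin and N-cadherin in their normal state, and the same factors act in the related endothelial to mesenchymal transition. Notch signaling acts through RBPJ, and SNAI1 and SNAI2 are known Notch targets in other cells. These are facts of background and not results of these libraries.

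The members moved in different directions when Notch was active in the endothelium. Vim, the main filament gene of mesenchymal and endothelial cells, rose 1.42-fold, and Krt18, a keratin of simple epithelia, fell to 0.408 of its Ctrl mean. Of the transcription factors, 4 of 5 were lower by the sign of the difference and Zeb2 was higher, but none of the 5 passed the test. Cdh1 did not separate the groups at all. Levels are RPKM, reads scaled by gene length and by library total. The test was limma on log2(RPKM + 1) over all RefSeq genes with a mean of at least 1 RPKM, called at an adjusted p under 0.05.

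In all, 12320 genes were tested, of which 13.6% were called, 5.88% higher and 7.68% lower in NICeCA. All 10 members are in the table and 8 were tested, since Krt8 and Cdh2 had a mean under 1 RPKM. Of these 8, 1 was called higher and 1 lower. An unadjusted p under 0.05 was reached by 5 of the 8 members and by 35.5% of all tested genes. Called or not, 2 of the 10 members had all NICeCA libraries above all Ctrl libraries, 4 had them all below, and 4 overlapped. The 4 below included Cdh2 and the 4 that overlapped included Krt8, both untested and so outside the shares that follow. Among all tested genes, 40.9% had groups that did not overlap, 16.5% higher and 24.4% lower. With so few members, no comparison with these shares was tested. The plot of the 10 genes by library shows all of these values.

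**Figure D1:**
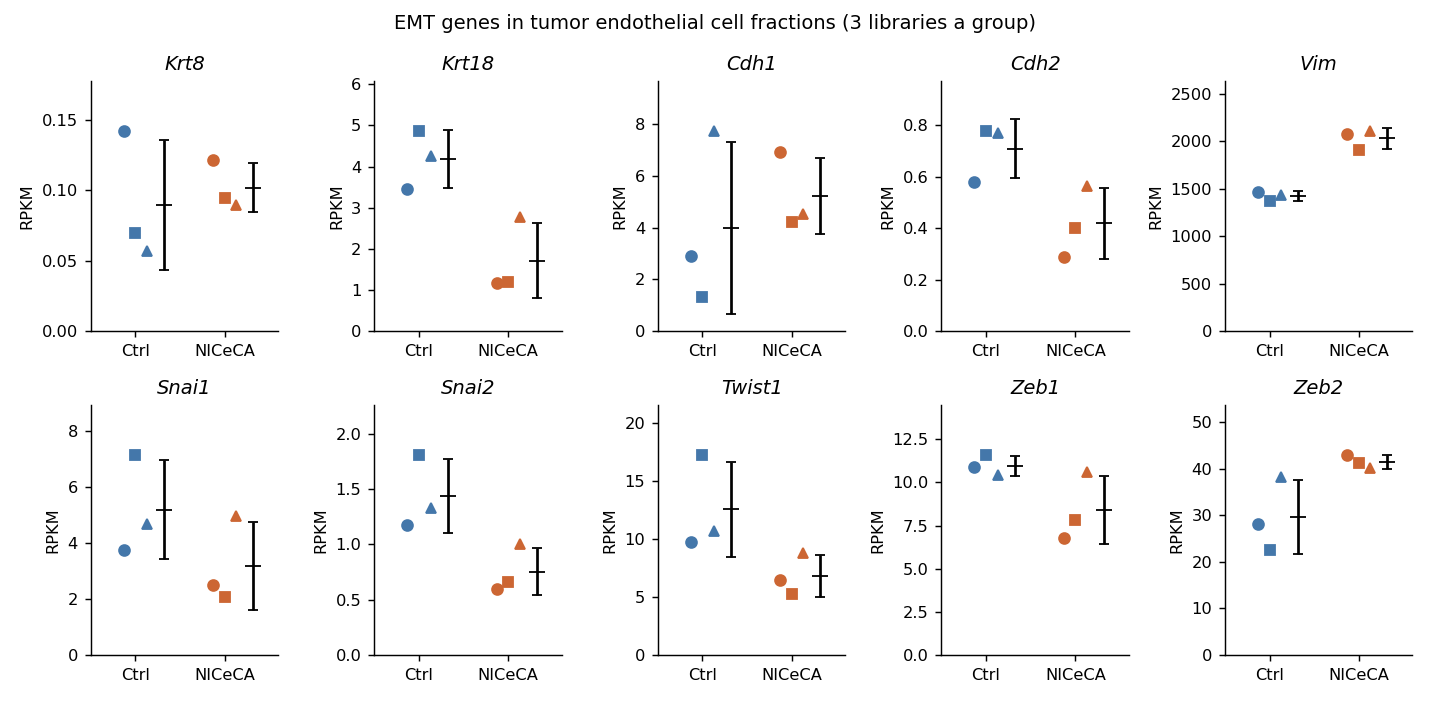
RPKM (vertical axis, linear from 0, with its own scale in each panel) of the 10 EMT genes in the Ctrl (blue) and NICeCA (orange) libraries. Circles, squares and triangles are replicates 1, 2 and 3, and the black bar gives the mean and SD (n = 3). Vim and Zeb2 were higher in every NICeCA library than in any Ctrl library, and Krt18, Cdh2, Snai2 and Twist1 were lower.

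The libraries held 35303191 to 39823498 reads over all rows, as recovered from the RPKM steps, and 27793301 to 30769916 reads on RefSeq rows. The fractions were not made up of endothelial RNA alone. The summed RPKM of 10 endothelial markers (Pecam1, Cdh5, Kdr and others) was 174 to 485 in Ctrl and 406 to 537 in NICeCA, and that of 8 macrophage markers was 5694 to 8192 and 3916 to 7188. Lyz2 alone gave 5555, 3635 and 3760 RPKM of the macrophage sum in Ctrl and 4493, 4562 and 2611 RPKM in NICeCA. The labels state a purity of over 90%, and summed RPKM of unlike genes does not give a share of cells. Fibroblast markers summed to 343 to 574 in Ctrl and 172 to 343 in NICeCA, mural cell markers to 24.0 to 35.6 and 49.8 to 80.1, and neutrophil markers to 117 to 268 and 592 to 1639. In bulk RNA, fewer cells of a type and less RNA per cell cannot be told apart, and several EMT genes are also active in fibroblasts, mural cells and macrophages. The tumors also held LLC carcinoma cells, and no markers of that line were read. The part of any of these other cells in the members' values was not tested.

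The sequences upstream of the called members, Krt18 and Vim, and of Krt8, the keratin partner and chromosomal neighbor of Krt18, are shown because the EMT repressors read E-boxes near start sites. Each is the 250 bases before the start in RefSeq (GRCm38.p6), written 5′ to 3′ on the gene's strand. Capitals mark CACCTG, the E-box that Snail and ZEB factors bind, and GTGGGAA, the core motif of RBPJ, the DNA-binding partner of the Notch1 intracellular domain. Both strands were searched.
Krt18, chr15:102027966-102028215, plus strand: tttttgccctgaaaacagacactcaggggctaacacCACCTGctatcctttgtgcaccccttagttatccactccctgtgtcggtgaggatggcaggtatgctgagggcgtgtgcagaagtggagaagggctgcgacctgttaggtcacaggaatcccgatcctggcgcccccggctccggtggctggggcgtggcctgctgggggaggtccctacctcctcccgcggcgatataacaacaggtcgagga
Krt8, chr15:102004343-102004592, minus strand: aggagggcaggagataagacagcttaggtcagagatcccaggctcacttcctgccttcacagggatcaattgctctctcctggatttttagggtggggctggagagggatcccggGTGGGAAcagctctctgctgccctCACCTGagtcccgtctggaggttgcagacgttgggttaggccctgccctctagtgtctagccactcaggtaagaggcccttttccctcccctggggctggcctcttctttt
Vim, chr2:13574061-13574310, plus strand: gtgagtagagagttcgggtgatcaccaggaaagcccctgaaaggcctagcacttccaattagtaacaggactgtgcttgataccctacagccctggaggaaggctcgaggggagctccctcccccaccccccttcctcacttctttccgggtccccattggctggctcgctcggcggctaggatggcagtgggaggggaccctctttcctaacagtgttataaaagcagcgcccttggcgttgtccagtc
The Krt18 window held 1 CACCTG, 214 to 209 bases before the start. The Krt8 window held 1 CACCTG, 111 to 106 bases before the start, and 1 GTGGGAA, 135 to 129 bases before it. The Vim window held neither string. Over all 32851 start sites of the table, 17.2% of such windows held CACCTG and 5.4% held GTGGGAA. The Snai1 window held CACCTG, and those of Twist1 and of the 4 Zeb2 starts held neither. A match describes letters only and does not show that a factor binds there.

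Krt18, which encodes the type I keratin of simple epithelia, was the only called epithelial member. It lies at chr15:102028216-102032026 on the plus strand of GRCm38 and has 7 exons. Its RPKM was 3.46, 4.86 and 4.25 in Ctrl 1, 2 and 3 and 1.17, 1.19 and 2.76 in NICeCA 1, 2 and 3. All NICeCA libraries were below all Ctrl libraries, with NICeCA 3 nearest to them. The means were 4.19 ± 0.70 and 1.71 ± 0.91 RPKM (SD, n = 3), a log2 difference of -0.98 with SE 0.23 and limma adjusted p = 0.038. The values rest on 189, 271 and 232 reads in Ctrl and 60, 59 and 144 reads in NICeCA. The call held without NICeCA 3 (limma adjusted p = 0.028) and was lost when any other single library was left out, with limma adjusted p = 0.051 without Ctrl 1, 0.091 without Ctrl 2, 0.063 without Ctrl 3, 0.14 without NICeCA 1 and 0.15 without NICeCA 2.

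Krt8, the type II keratin that pairs with keratin 18 in filaments, starts 23873 bases from Krt18 and is transcribed away from it. It lies at chr15:101996711-102004342 on the minus strand and has 9 exons. It was nearly silent, with 10, 5 and 4 reads in Ctrl and 8, 6 and 6 reads in NICeCA. These reads give 0.142, 0.0696 and 0.0568 RPKM in Ctrl and 0.121, 0.0942 and 0.0893 RPKM in NICeCA, and the groups overlapped. The means were 0.0894 ± 0.0459 and 0.102 ± 0.0173 RPKM (SD, n = 3), and a moderate change was not detectable at this depth. Krt18 RNA was thus present without a matching level of its partner. The ratio of Krt8 to Krt18 was 0.041, 0.014 and 0.013 in Ctrl and 0.103, 0.079 and 0.032 in NICeCA. It overlapped between the groups, with a log2 difference of 1.69 and exact permutation p = 0.2, two-sided.

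Cdh1 encodes E-cadherin, the adhesion protein whose loss defines an EMT. It lies at chr8:106603368-106670246 on the plus strand and has 16 exons. Its RPKM was 2.92, 1.33 and 7.73 in Ctrl 1, 2 and 3 and 6.93, 4.23 and 4.54 in NICeCA 1, 2 and 3. Both the lowest and the highest library were Ctrl libraries, so the NICeCA range lay within the Ctrl range. The means were 3.99 ± 3.34 and 5.23 ± 1.48 RPKM (SD, n = 3), a coefficient of variation of 83.5% in Ctrl and 28.2% in NICeCA. The log2 difference was 0.51 with SE 0.43, limma adjusted p = 0.43, and its 95% interval of -0.48 to 1.5 leaves room for a change in either direction. The difference was 0.07 without Ctrl 2 and 1.02 without Ctrl 3 (limma adjusted p = 0.055), so single Ctrl libraries set its size.

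Cdh2 encodes N-cadherin, which replaces E-cadherin in an EMT and also joins endothelial cells to mural cells. It lies at chr18:16588877-16809049 on the minus strand and has 16 exons. Its RPKM was 0.579, 0.778 and 0.773 in Ctrl and 0.289, 0.402 and 0.566 in NICeCA, on 105, 144 and 140 and on 49, 66 and 98 reads. All NICeCA libraries were below all Ctrl libraries, NICeCA 3 by a narrow margin to Ctrl 1. The means were 0.710 ± 0.114 and 0.419 ± 0.139 RPKM (SD, n = 3), and the gene was not tested because of its low mean. When genes of all levels were fitted, the log2 difference was -0.27 with limma adjusted p = 0.14. The added 1 RPKM shrinks this difference at so low a level, where the NICeCA mean was 0.591 of the Ctrl mean. The ratio of Cdh2 to Cdh1, a common index of the cadherin switch, was 0.198, 0.587 and 0.10 in Ctrl and 0.042, 0.095 and 0.125 in NICeCA. It overlapped between the groups, with a log2 difference of -1.52 and exact permutation p = 0.2, two-sided. The difference was -0.83 without Ctrl 2, and from -2.11 to -1.06 without each of the other libraries.

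Vim encodes vimentin, the intermediate filament of mesenchymal and endothelial cells and of leukocytes. It lies at chr2:13574311-13582826 on the plus strand and has 9 exons. Its RPKM was 1472, 1372 and 1436 in Ctrl and 2077, 1908 and 2109 in NICeCA. The groups were well apart, and the replicates of each lay close together. The means were 1427 ± 50.6 and 2032 ± 108 RPKM (SD, n = 3), which put the gene at rank 21 of all RefSeq rows in Ctrl and rank 15 in NICeCA. The log2 difference was 0.51 with SE 0.13, a 95% interval of 0.20 to 0.82 and limma adjusted p = 0.045. The call was lost when any single library was left out, with limma adjusted p = 0.058 without Ctrl 1, 0.12 without Ctrl 2, 0.069 without Ctrl 3, 0.14 without NICeCA 1, 0.16 without NICeCA 2 and 0.081 without NICeCA 3. The difference itself stayed between 0.48 and 0.55 in these fits.

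Snai1 encodes Snail, a zinc finger repressor of E-cadherin. It lies at chr2:167538227-167542811 on the plus strand and has 3 exons. Its RPKM was 3.75, 7.16 and 4.69 in Ctrl and 2.51, 2.05 and 4.96 in NICeCA. The groups overlapped through NICeCA 3, which stood above Ctrl 1 and Ctrl 3. The means were 5.2 ± 1.76 and 3.17 ± 1.56 RPKM (SD, n = 3), a log2 difference of -0.60 with SE 0.29 and limma adjusted p = 0.18. The difference was -0.38 without Ctrl 2 and -0.88 without NICeCA 3, and it was called in none of the fits that leave out 1 library.

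Snai2 encodes Slug, the close relative of Snail. It lies at chr16:14705859-14709382 on the plus strand and has 3 exons. Its RPKM was 1.17, 1.81 and 1.33 in Ctrl and 0.600, 0.662 and 1.00 in NICeCA, on 92 to 145 and 44 to 75 reads. All NICeCA libraries were below all Ctrl libraries. The means were 1.44 ± 0.33 and 0.754 ± 0.216 RPKM (SD, n = 3), a log2 difference of -0.47 with SE 0.17 and limma adjusted p = 0.090. At so low a level the added 1 RPKM shrinks the difference, which was -0.85 with 0.1 RPKM added and still not called (limma adjusted p = 0.093). The ratio of Snai2 to Snai1 differed little between the groups, by -0.17 on the log2 scale (exact permutation p = 0.5, two-sided), and from -0.36 without NICeCA 2 to -0.02 without NICeCA 3.

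Twist1, a basic helix-loop-helix factor of mesenchyme, lies at chr12:33957671-33959831 on the plus strand and has 2 exons. Its RPKM was 9.74, 17.3 and 10.7 in Ctrl and 6.47, 5.23 and 8.76 in NICeCA. The groups did not overlap, and Ctrl 2 stood above the rest. The means were 12.6 ± 4.1 and 6.82 ± 1.79 RPKM (SD, n = 3), a log2 difference of -0.78 with SE 0.24, a 95% interval of -1.33 to -0.23 and limma adjusted p = 0.064. Of the factors it had the largest difference on this scale, and it was called in none of the 16 alternative fits. The summed fibroblast markers were 343, 574 and 409 RPKM in Ctrl and 215, 172 and 343 RPKM in NICeCA. Ctrl 2 was thus highest and NICeCA 2 lowest in this sum and in Twist1. Col3a1 alone gave 270, 454 and 300 RPKM of the sum in Ctrl and 149, 103 and 226 RPKM in NICeCA. Not every marker had this order, and Postn was lowest in Ctrl 2. Pdgfra, Lum and Col3a1 were called lower among the markers, and Postn higher. Of the 9 tested, 5 had negative and 4 positive differences, with a median of -0.19. The part of fibroblast RNA in the Twist1 values was not tested.

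**Figure D2:**
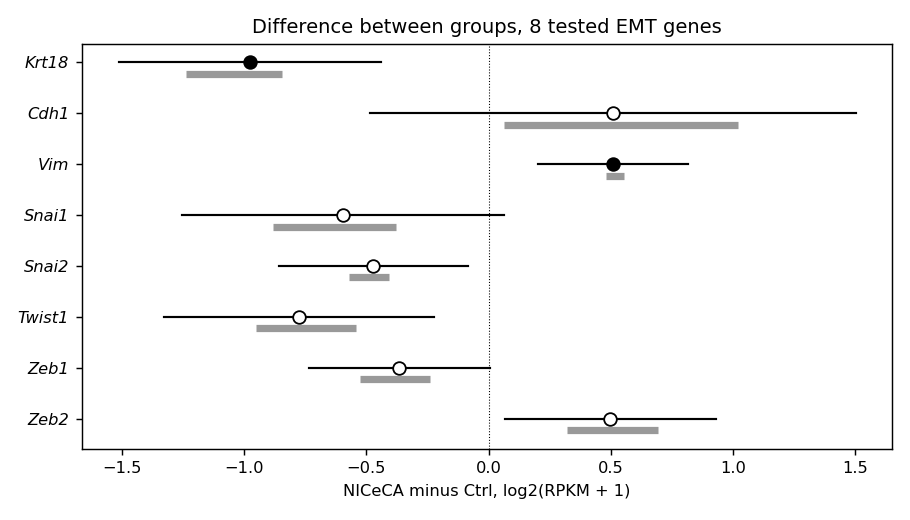
Difference between the groups in log2(RPKM + 1), NICeCA minus Ctrl (horizontal axis), for the 8 tested EMT genes. Circles are limma estimates, filled at an adjusted p under 0.05; black lines are 95% intervals and grey bars the range over fits that leave out 1 library each. Krt18 at -0.98 and Vim at 0.51 were the called genes, and no grey bar crossed 0.

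The ZEB genes went opposite ways by sign. Zeb1, a zinc finger and homeodomain repressor of epithelial genes, lies at chr18:5591860-5775468 on the plus strand and has 8 exons. Its RPKM was 10.9, 11.6 and 10.4 in Ctrl and 6.80, 7.84 and 10.6 in NICeCA. NICeCA 3 reached the Ctrl level and the other NICeCA libraries did not. The means were 11 ± 0.6 and 8.42 ± 1.98 RPKM (SD, n = 3), a log2 difference of -0.36 with SE 0.16 and limma adjusted p = 0.15. Removal of each library's trend on gene length changed it to -0.16 (limma adjusted p = 0.48), and it was -0.24 without NICeCA 1 (limma adjusted p = 0.38). Gm10125, a row on the opposite strand that overlaps the Zeb1 start, was 1.75 to 2.91 RPKM in Ctrl and 0.545 to 1.92 RPKM in NICeCA (log2 difference -0.68, limma adjusted p = 0.10).

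Zeb2 encodes the paralog of ZEB1, which is also active in macrophages and other leukocytes. It lies at chr2:44983634-45113279 on the minus strand and has 11 exons. Its RPKM was 28.2, 22.6 and 38.3 in Ctrl and 43.0, 41.2 and 40.1 in NICeCA. All NICeCA libraries were above all Ctrl libraries, though Ctrl 3 came close. The means were 29.7 ± 8.0 and 41.4 ± 1.5 RPKM (SD, n = 3), a log2 difference of 0.50 with SE 0.19, a 95% interval of 0.07 to 0.93 and limma adjusted p = 0.10. It was called without Ctrl 3 (0.69, limma adjusted p = 0.030) and when each library's length trend was taken out (0.83, limma adjusted p = 0.037). The difference shrank to 0.32 without Ctrl 2 and to 0.33 with quantile normalization (limma adjusted p = 0.24 in both). Gm13476, a row on the opposite strand at the Zeb2 start that GENCODE names Zeb2os, was 13.9, 11 and 14.5 RPKM in Ctrl and 19.7, 22.8 and 17.7 RPKM in NICeCA, a log2 difference of 0.58 with limma adjusted p = 0.044. Mir5129, the other RefSeq row that overlaps Zeb2, was 76.9 to 127 RPKM in Ctrl and 116 to 140 RPKM in NICeCA. These ranges overlapped (log2 difference 0.42, limma adjusted p = 0.17). Both were looked at because they overlap Zeb2, after the values had been seen. No source used here states whether counting was by strand, and without strand the reads of overlapping genes cannot be separated.

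The ratio of Zeb2 to Zeb1 within a library was 2.60, 1.94 and 3.68 in Ctrl and 6.33, 5.26 and 3.78 in NICeCA. All NICeCA libraries were above all Ctrl libraries, with NICeCA 3 and Ctrl 3 nearly level. The log2 difference was 0.92 and the exact permutation p was 0.1, two-sided, the smallest that 20 assignments of 3 against 3 libraries can give. Over the 4 ratios computed, none could pass a threshold of 0.05 in this design.

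Rows of the table for FANTOM3 transcript models, cDNAs of a mouse full-length collection, lie inside the introns of both ZEB genes. They were examined after the data had been seen, in a fit of all rows. Of the 5 Zeb1 rows that touch no annotated exon, 4 were called lower, with log2 differences from -1.17 to -0.71 over the 5. Such intronic rows were often lower across the genome: of 1396 tested, 24.6% were called lower and 3 rows higher, with a median of -0.44. The 5 Zeb1 rows had means of 1.72 to 3.33 RPKM in Ctrl and 0.506 to 1.01 RPKM in NICeCA. They thus reached the filter of a mean of 1 RPKM mainly through Ctrl. Among them, B230104L09 and B930053J07 overlap each other and share reads. None of the 4 Zeb2 rows was called, with differences from -0.14 to 0.50.

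Pooled over the 4 Zeb1 rows that do not overlap each other, the intron level was 2.25, 3.26 and 2.05 RPKM in Ctrl and 0.457, 1.05 and 1.07 RPKM in NICeCA. All NICeCA libraries were below all Ctrl libraries, and NICeCA 3, which reached the Ctrl level in the gene row, was below it here. As a percentage of the Zeb1 gene row this was 20.7, 28.1 and 19.7 in Ctrl and 6.72, 13.3 and 10.1 in NICeCA (exact permutation p = 0.1, two-sided, the smallest possible). The 4 Zeb2 rows gave 5.12, 3.08 and 11.4 RPKM in Ctrl and 5.75, 7.34 and 7.09 RPKM in NICeCA. The Zeb2 groups overlapped, also as a percentage of the gene row (18.1, 13.7 and 29.6 against 13.4, 17.8 and 17.7, exact permutation p = 0.4, two-sided). Reads from introns can come from unspliced RNA of the gene or from separate transcripts, which these rows cannot tell apart.

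**Figure D3:**
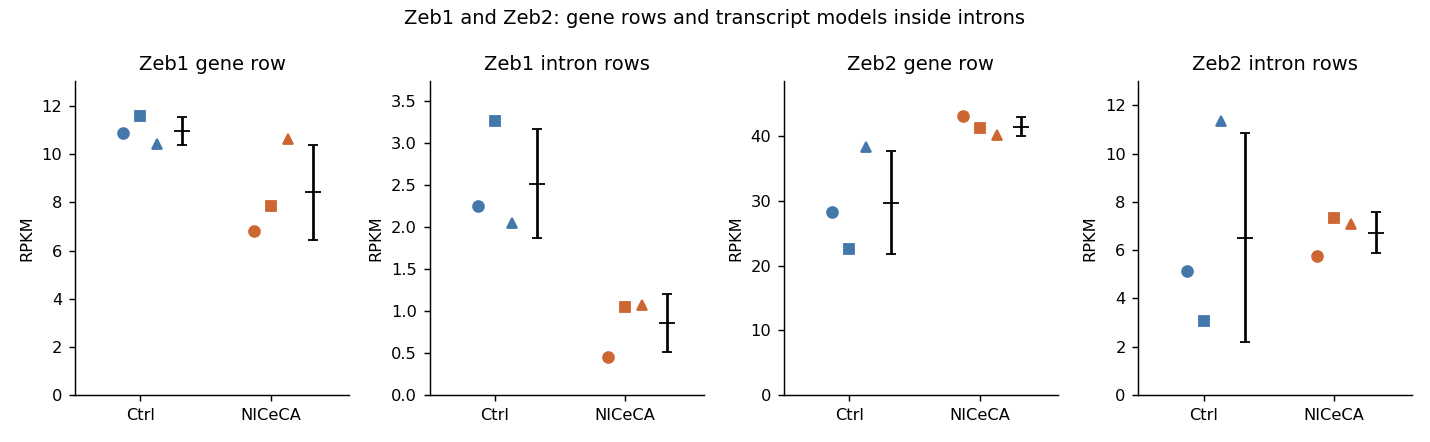
RPKM (vertical axes, linear from 0) of Zeb1 and Zeb2, as the gene row and as the level over 4 non-overlapping FANTOM3 rows inside introns, in Ctrl (blue) and NICeCA (orange) libraries, with symbols for replicates 1, 2 and 3 and mean and SD (n = 3). The Zeb1 intron level was 2.05 to 3.26 in Ctrl and 0.457 to 1.07 in NICeCA, while the Zeb2 intron levels overlapped.

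The order of the 10 genes by level was similar in the groups. In Ctrl it ran Vim, Zeb2, Twist1, Zeb1, Snai1, Krt18, Cdh1, Snai2, Cdh2, Krt8, and in NICeCA it ran Vim, Zeb2, Zeb1, Twist1, Cdh1, Snai1, Krt18, Snai2, Cdh2, Krt8. Vim stood above Zeb2, and Zeb2 above all others, in every library. In Ctrl the neighbors from Snai1 to Snai2 overlapped in their ranges, as did Twist1 and Zeb1. In NICeCA the neighbors from Zeb1 to Krt18 overlapped. Zeb2 was the most abundant of the 5 factors in both groups, and the middle of the order was not resolved.

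Likeness of pattern was measured as the mean absolute difference in log2(RPKM + 1) over the 6 libraries, after each gene was centred on its own mean, for the 4 tested members that spanned at least 1 on that scale. Snai1 and Twist1 were near each other, at 0.110. Among all tested genes, Twist1 ranked 36th by likeness to Snai1, and Snai1 ranked 124th by likeness to Twist1. Krt18 was nearest to Mir3572, at 0.056, then Dpysl3 at 0.081 and Fah at 0.084. The genes most like Snai1 were Lhfp, Angptl2 and Rbpms2, at 0.039 to 0.069, and those most like Twist1 were Tonsl, Medag and Clstn1, at 0.039 to 0.044. The genes most like Cdh1 were Cish at 0.12, Dcstamp at 0.16 and Gpr35 at 0.17. Cdh1 was far from Twist1, at 0.83, and nearer to Zeb2, at 0.32. Genes share library effects, so these are descriptions.

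The wider epithelial program was barely present. Of 30 further epithelial genes, 5 had a mean of at least 1 RPKM and none was called, with a median log2 difference of 0.57 against -0.05 over all tested genes. Among those with the highest levels were Spint1, a protease inhibitor, at 5.15 ± 2.66 and 9.24 ± 2.88 RPKM, Jup, the junction protein plakoglobin, at 3.85 ± 1.17 and 5.0 ± 0.4 RPKM (SD, n = 3), and Krt20, a keratin. Epcam, a defining marker of carcinoma and epithelium, had 22 to 42 reads in Ctrl and 23 to 48 in NICeCA, 0.274 to 0.522 and 0.306 to 0.625 RPKM. By this marker epithelial RNA was low in both groups.

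Mesenchymal genes did not move as a body. Of 30 further genes, 27 were tested, 3 were called higher and 2 lower, with a median of 0.29. Inhba, the subunit of activin A, had the largest difference, from 1.34, 4.16 and 14.9 RPKM in Ctrl to 47.1, 59.3 and 77.2 RPKM in NICeCA (log2 difference 3.4, limma adjusted p = 0.021). Tagln, a smooth muscle actin-binding protein, rose from 7.70 ± 2.14 to 23.3 ± 8.8 RPKM, and Col5a2 from 2.54 ± 0.36 to 5.4 ± 1.9 RPKM (SD, n = 3). Axl, a receptor tyrosine kinase linked to EMT and also found on macrophages, fell from 44.8 ± 6.0 to 16.1 ± 2.7 RPKM, and Col5a1 from 29.9 ± 12.5 to 11.8 ± 5.7 RPKM (SD, n = 3). The collagen V genes thus passed the test in opposite directions. The abundant genes S100a4, Sparc, Fn1 and Itgb1 did not pass, with log2 differences of 0.21, 0.78, -0.89 and 0.29. Tagln is also a mural cell gene. Of 6 tested mural markers, Rgs5 and Kcnj8 were called higher and 4 did not pass, with 5 positive differences and 1 negative. The part of mural cells in the Tagln values was not tested.

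Among 20 other EMT transcription factors, 14 were tested, with a median of -0.47, 4 positive and 10 negative differences, 2 calls higher and 1 lower. The higher ones were Id1 and Id2, inhibitors of basic helix-loop-helix factors. Id2 went from 28.3, 26.1 and 64.7 RPKM in Ctrl to 127, 129 and 113 RPKM in NICeCA, with no overlap (log2 difference 1.73, limma adjusted p = 0.023). Id1 went from 21.4, 8.68 and 10.8 RPKM to 35.2, 27.5 and 26.2 RPKM (1.15, limma adjusted p = 0.043). Tcf3, whose product E2A binds E-boxes and pairs with TWIST1 and with the ID proteins, fell from 21.0 ± 4.1 to 13.3 ± 1.2 RPKM (SD, n = 3; limma adjusted p = 0.043). Id3 was 44.6 ± 19.6 and 80.0 ± 8.7 RPKM (SD, n = 3) and did not pass (limma adjusted p = 0.059).

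TGF-beta signaling is the best known inducer of EMT, and 22 of its 23 listed genes were tested, with 2 called higher, 4 lower and a median of -0.08. Smad6, an inhibitor of BMP signaling, rose from 1.47 ± 0.38 to 3.82 ± 0.27 RPKM, and Tgif1, a repressor of SMAD targets, from 23.7 ± 3.8 to 38.5 ± 4.5 RPKM (SD, n = 3). Tgfbr3, the coreceptor betaglycan, fell from 24.8 ± 3.4 to 10.7 ± 2.5 RPKM, and Ltbp3, which holds latent TGF-beta in the matrix, from 11.7 ± 4.6 to 4.03 ± 1.11 RPKM (SD, n = 3). Smad5 and Ski were the others called lower, by -0.58 and -0.61 on the log2 scale. The ligand Tgfb1 (log2 difference 0.21) and the receptor Tgfbr2 (-0.06) did not pass. Of 20 corepressors and regulators that EMT factors work with, all were tested and 1, the chromatin remodeler Smarca4, was called, from 22 ± 2.1 to 14.2 ± 1.7 RPKM (SD, n = 3), while Ctbp1, Ehmt2, Csnk1a1 and Lats2 did not pass.

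**Figure D4:**
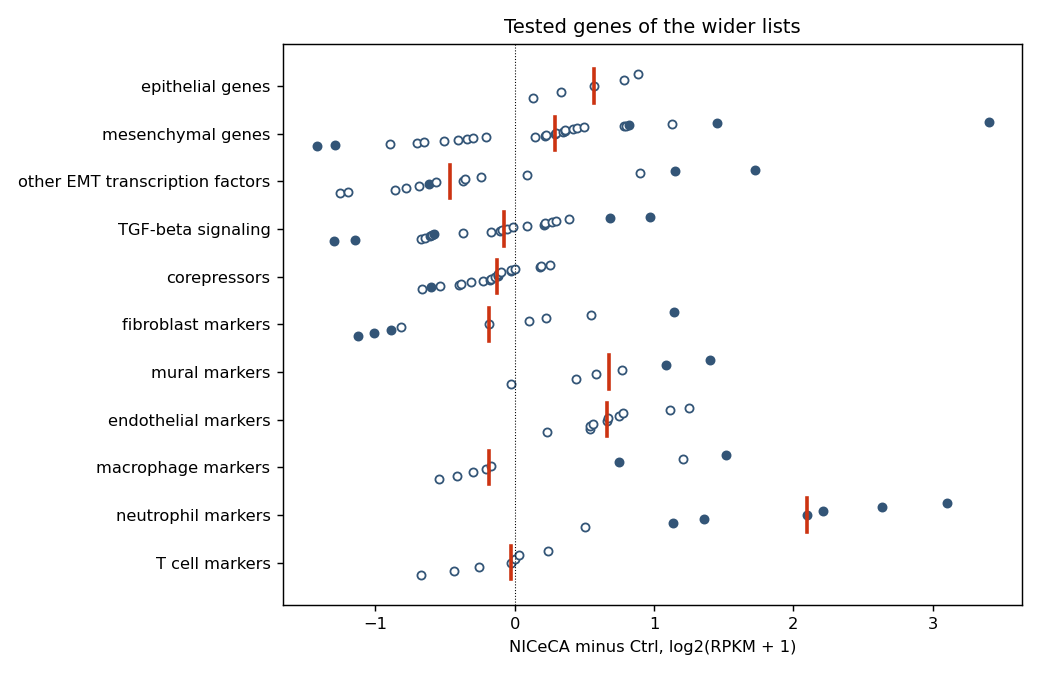
Difference between the groups in log2(RPKM + 1), NICeCA minus Ctrl (horizontal axis), for each tested gene of the wider EMT lists and the cell type marker lists. Circles are genes, filled at a limma adjusted p under 0.05, and red lines are list medians. The epithelial and endothelial lists held no called gene, and 6 of 7 tested neutrophil markers were called higher.

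The cell type marker lists did not all move alike. All 10 endothelial markers had positive differences, with a median of 0.66, and none was called. Of 9 tested fibroblast markers, 3 were called lower and 1 higher. Of 6 tested mural markers 2 were called higher, and of 7 tested T cell markers none was called. Of 8 macrophage markers 2 (Cd68 and Fcgr1) were called higher, but 5 had negative and 3 positive differences, with a median of -0.19. Over all tested genes, 5.88% were called higher and 7.68% lower. Neutrophil markers were called higher in 6 of 7 cases, with a median of 2.10. Macrophage Lyz2 was 4317 ± 1074 and 3889 ± 1107 RPKM (SD, n = 3), far above any of the 10 endothelial markers.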

How the data were processed

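The authors deposited RPKM values for RefSeq and FANTOM3 rows, made from rRNA-depleted libraries with TopHat2 per the submitters' processing notes. No source used here names the counting tool or says whether it used strand. The notes name mm9, but 99.3% of 21665 matched RefSeq rows overlap their GRCm38 place, so coordinates and exons are GRCm38 (GENCODE). RPKM times length gave whole reads (100.0% of the low values checked lay within 0.05 of a whole number). A library total in reads is the sum over all 56826 rows. Groups and replicate numbers follow the sample titles. The study's methods speak of pairs of mice, and the labels do not tie a library to 1 animal, so p-values measure the spread between these samples.

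From the deposited RPKM values, log2(RPKM + 1) of RefSeq rows with a mean of at least 1 RPKM was fitted with limma 3.58.1 (R 4.3.3; lmFit, eBayes with trend), two-sided, with Benjamini-Hochberg adjustment over all tested genes and a threshold of 0.05. A fold change on this scale understates that of low genes. The script was tested on simulated data. Ratios within a library were compared by exact permutation over 20 assignments. Members and lists were chosen with earlier results of these data known. Genes are named if they are members, called genes of a list, up to 4 genes of a list with the highest mean RPKM, or the 3 most like a member. A gene of the epithelial list that the rule names is not reported here. Epcam and the other RefSeq rows that overlap Zeb1 and Zeb2 fall outside this rule and were chosen after their values were seen. RefSeq (GRCm38.p6) upstream sequences were found for Krt8, Krt18, Vim, Snai1, Twist1 and Zeb2. Alternatives were the replicate block, each library left out, other scaling, filters and pseudocount, no trend, voom on the recovered reads, removal of a length trend (lowess, span 0.3) and, chosen after seeing the data, a fit with FANTOM3 rows.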

Additional observations from a re-analysis of the deposited data

How the results depend on the processing

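No member's difference changed sign under any alternative that gave a value. The replicate block, the other filters, the fit with no trend and the FANTOM3 rows could not change it, since they alter only the p-values. For Krt8 and Cdh2 the fit with no filter was the only alternative. Krt18 was called in 7 of 15 alternatives (log2 difference -1.36 to -0.83, limma adjusted p 0.028 to 0.15), Vim in 6 of 16 (0.35 to 0.57, 0.036 to 0.22) and Zeb2 in 2 of 16 (0.32 to 0.83, 0.030 to 0.25). The other tested members were called in none.

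The count of members called was 1 higher and 1 lower. It was 0 and 0 with the replicate block, with quantile normalization and with no filter on low values, 0 lower at a mean of at least 5 RPKM, where Krt18 could not be fitted, 2 higher with the length trend removed, and 0 higher with FANTOM3 rows included. Leaving out 1 library each gave 0 to 1 higher and 0 to 1 lower.

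Over all tested genes, 725 were called higher and 946 lower, so that 43.4% of calls were higher. Scaling the libraries by trimmed means of log ratios gave 1002 higher and 684 lower, 59.4% higher. The replicate block gave 327 and 209, and it ended the calls of Krt18 (limma adjusted p = 0.0503) and Vim (limma adjusted p = 0.13). Deviations from the group mean correlated at 0.12, -0.34 and -0.18 between libraries of the same number. No Ctrl library correlated best with the NICeCA library of its own number, and the best correlations with another number were 0.27, 0.44 and 0.12. Deviations of 3 libraries from their own mean are tied to each other, so these correlations cannot decide whether the numbers mark pairs. Quantile normalization gave 446 and 325 (57.8% higher), no filter 260 and 105, a mean of at least 5 RPKM 629 and 579, removal of the length trend 590 and 206, and FANTOM3 rows 1026 and 2185. Leaving out 1 library each gave 17 to 911 higher and 1 to 832 lower, with 17 and 1 without NICeCA 2, 90 and 14 without NICeCA 1, 244 and 135 without Ctrl 2, and 534 lower without Ctrl 1. The cause of these shifts was not tested, beyond the smaller number of samples.

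In data simulated for this comparison with 12755 genes and 3 libraries a group, 43.4% of 99 genes given a 2-fold change were called. Of 100 given a 4-fold change, 100% were called. These shares hold for the spread set in the simulation, which was not compared with that of these libraries. Among the tested members the coefficient of variation ran from 3.5% for Vim in Ctrl to 83.5% for Cdh1 in Ctrl. The share of real changes of these sizes that the test finds was not measured. A p over the threshold does not show equal levels. Krt8 was limited by its few reads. Cdh2 had 49 to 144 reads a library and was left out of the test by its mean under 1 RPKM.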
